A study of Mus musculus with 6 samples.

Results

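Iron handling and ferroptosis defence were followed through 10 genes, taken by symbol from the 55356 genes of the deposited table: Tfrc, Slc11a2, Slc40a1, Fth1, Ftl1, Ireb2, Aco1, Gpx4, Aifm2 and Acsl4. Each symbol matched a single row. The RNA came from myotubes of C2C12, a mouse myoblast line whose cells fuse into multinucleate muscle cells in culture, and a single line stands here for muscle. Cultures received 20 µM sorafenib for 24 h (3 libraries) or 0.1% DMSO, the solvent, for 24 h (3 libraries). Each group came from independent experiments, per the series' design text. The comparison asks how sorafenib, a kinase inhibitor used against cancer, alters gene expression in muscle cells.

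Cells take up transferrin-bound iron through the transferrin receptor, move it out of endosomes with DMT1, store it in ferritin and release it through ferroportin. The iron regulatory proteins IRP1 and IRP2 bind hairpins called iron-responsive elements (IREs) in messenger RNAs: bound at the 5′ end they block translation, and bound in the 3′ untranslated region (UTR) of the transferrin receptor they protect the message from decay. Ferroptosis is a form of cell death driven by iron-dependent peroxidation of membrane lipids. It is restrained by glutathione with the selenoenzyme GPX4, and separately by FSP1, the product of Aifm2, which regenerates reduced coenzyme Q. ACSL4 supplies the polyunsaturated lipids that are peroxidized. Sorafenib has been described, not without dispute, as a blocker of cystine uptake in cancer cells.

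The IRE sites are shown because Tfrc, Slc40a1, Fth1 and Ftl1, among the transport and storage genes described first, each hold at least 1. A search of annotated UTRs (GENCODE M21, build GRCm38, coding strand) looked for a bulged C, 5 bases, the loop CAGTGN and 5 bases that pair with the first 5, G-T pairs allowed. The bulged C and the loop are in capitals, and 5 bases are shown on either side.
Tfrc 3′ UTR, site 1, chr16:32631220-32631246, plus strand: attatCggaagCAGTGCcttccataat
Tfrc 3′ UTR, site 2, chr16:32631599-32631625, plus strand: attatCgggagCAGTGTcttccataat
Tfrc 3′ UTR, site 3, chr16:32631664-32631690, plus strand: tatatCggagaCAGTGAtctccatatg
Tfrc 3′ UTR, site 4, chr16:32631711-32631737, plus strand: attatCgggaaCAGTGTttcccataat
Slc40a1 5′ UTR, chr1:45925466-45925492, minus strand: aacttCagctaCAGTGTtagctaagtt
Fth1 5′ UTR, chr19:9982733-9982759, plus strand: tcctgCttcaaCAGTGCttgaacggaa
Ftl1 5′ UTR, chr7:45459780-45459806, minus strand: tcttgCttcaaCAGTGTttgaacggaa
These letters occurred in the 5′ UTR of 31 of 20916 genes (0.148%) and in the 3′ UTR of 129 of 21039 (0.613%). Among the 10 genes, 3 had a match in the 5′ UTR and 1, Tfrc, in the 3′ UTR. The Fth1 and Ftl1 sites were identical at 25 of 27 bases, with the same 5 paired bases on each side of the loop. Slc11a2, described as having an IRE in some of its isoforms, had no match to these letters.

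Values are the authors' normalized counts: reads assigned to a gene, divided by a size factor for the library. Normalized totals were 70211431 to 70598400 per sorafenib library and 77972419 to 78898086 per DMSO library, and estimated depth was 76.3 to 77.3 M reads in sorafenib and 65.6 to 80.2 M reads in DMSO. All 10 genes passed the minimum of 10 normalized counts in 3 libraries. By limma, with Benjamini-Hochberg adjustment over 16645 genes and a threshold of 0.05, 2 of the 10 rose in sorafenib, 7 fell and 1, Gpx4, did not pass. In the same fit 76.6% of all genes tested passed, 38.8% higher and 37.8% lower in sorafenib, so the number of calls among the 10 was near that of genes in general. The changes of 4 of the 10 were at least 2-fold, against 29.8% of all genes. Each library was also scaled to an equal total, which shifted the median of all genes up by 0.16 on the log2 scale. Then 3 of the 10 were higher and 4 lower, beside 46.6% and 31.7% of all genes, 78.3% together. The 10 genes had a median log2 change of −0.13 by the authors' normalization and 0.025 with equal totals, and all tested genes had 0.015 and 0.17. In all 10 genes, 3 higher and 7 lower, the sorafenib and DMSO libraries did not overlap, as in 79.5% of genes tested (40.1% higher, 39.4% lower). With equal totals 7 of the 10 did not overlap, 3 higher and 4 lower, as in 81.1% of genes tested (48.1% higher, 33% lower).

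The cells were checked against markers. All 7 myotube markers were present and fell in sorafenib, with summed levels of 458668 to 549046 in sorafenib and 1648120 to 1770080 in DMSO. In a bulk sample, fewer cells of a type and less RNA per cell cannot be told apart, and the part of this fall in the results below was not tested. Of 12 macrophage markers 4 reached the minimum, 2 higher and 2 lower, and the summed level was 998 to 1156 in sorafenib and 421 to 464 in DMSO. Of these Adgre1, C1qa and Marco were listed at 0 in every library. Ptprc was at 0.919 or less in sorafenib and 0.976 or less in DMSO. The most abundant macrophage marker, Cd14, had means of 643 ± 40.3 in sorafenib and 277.9 ± 15.4 in DMSO (SD, n = 3 each). Cd68 also rose, with means of 386.4 in sorafenib and 45.5 in DMSO. Itgam fell, with means of 17.1 in sorafenib and 61.0 in DMSO. Mrc1 fell too, with means of 3.67 in sorafenib and 44.9 in DMSO. Mrc1 reached the minimum only in the DMSO libraries, so a call could hardly go the other way. Of 9 erythroid markers 8 were in the table, with a summed level of 25.1 to 30.3 in sorafenib and 31.2 to 56.1 in DMSO, and Gata1, Hbb-bs and Hbb-bt were listed at 0 throughout. Hba-a2 was listed at 0 in every sorafenib library and averaged 21.5 in DMSO. Over all libraries the most abundant erythroid marker was Hba-a1, which averaged 17.5 ± 3.93 in sorafenib and 12.6 ± 5.27 in DMSO (SD, n = 3 each). Hba-a2 is its near-identical copy, and reads can be split between these copies uncertainly.

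**Figure D1:**
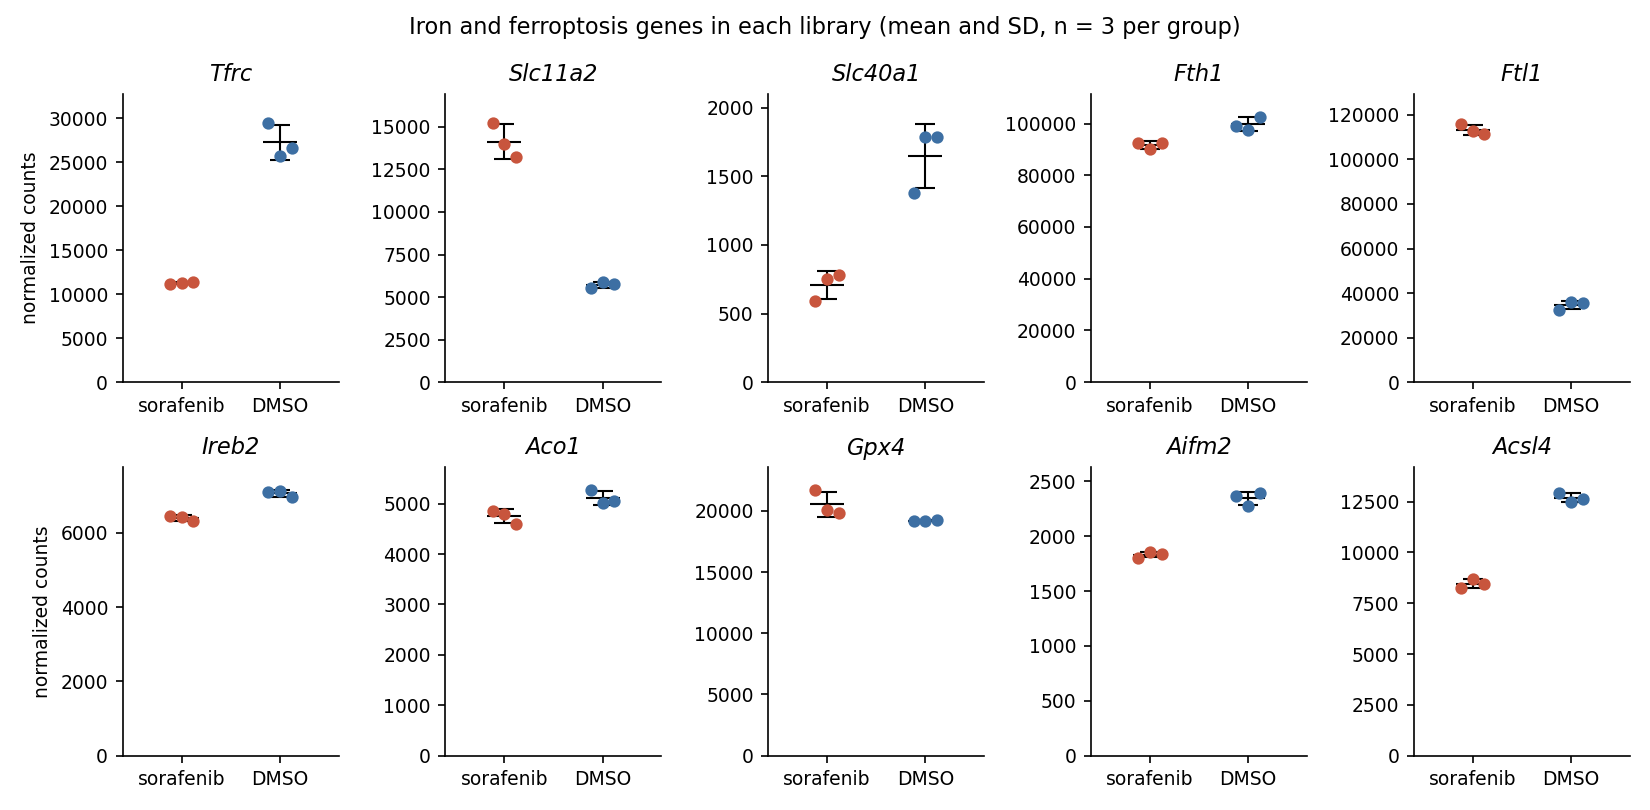
Normalized counts (linear axes from 0) of the 10 genes in each of the 3 sorafenib and 3 DMSO libraries; points are libraries, and black marks are the mean and SD. Ftl1 and Slc11a2 stood well above their DMSO libraries in sorafenib, Tfrc and Slc40a1 well below, and the groups of Fth1, Ireb2, Aco1 and Gpx4 lay close together.

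Sorafenib cultures held less transferrin receptor and ferroportin message and more DMT1 message. Tfrc (ENSMUSG00000022797.17, chromosome 16, 32608920 to 32632794 on GRCm38 in GENCODE M21), the receptor that imports transferrin-bound iron, had 11155, 11282 and 11440 normalized counts in the sorafenib libraries and 29486, 25679 and 26634 in the DMSO libraries. Every sorafenib library was below every DMSO library, and the sorafenib values lay closer together (SD 142) than the DMSO values (SD 1981). Tfrc fell 2.41-fold, a log2 change of −1.27 ± 0.05 (SE, limma adjusted p = 3.65e-08). A larger absolute log2 change was measured in 22.9% of all genes tested.

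Slc11a2 (ENSMUSG00000023030.17, chromosome 15, 100387898 to 100425072) encodes DMT1, which carries ferrous iron out of the endosome into the cytosol. It had 15221, 13993 and 13209 normalized counts in sorafenib and 5542, 5878 and 5775 in DMSO. The lowest sorafenib library was above the highest DMSO library, and the gene rose 2.47-fold, by 1.30 ± 0.05 on the log2 scale (SE, limma adjusted p = 4.4e-08). These are values per gene, and they do not separate isoforms with and without an IRE.

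Slc40a1 (ENSMUSG00000025993.11, chromosome 1, 45908068 to 45926523) encodes ferroportin, the iron exporter. It had 592.4, 750.4 and 779.7 normalized counts in sorafenib, against 1378, 1783 and 1784 in DMSO. Replicate 1 was the lowest library within each group, and the groups did not overlap. The gene fell 2.33-fold, a log2 change of −1.22 ± 0.13 (SE, limma adjusted p = 5.64e-05), with the largest standard error of the 10 genes. The ratio of Tfrc to Slc40a1 within a library was 18.8, 15.0 and 14.7 in sorafenib and 21.4, 14.4 and 14.9 in DMSO. These ratios overlapped, with a log2 difference of −0.05 (exact two-sided permutation test, p = 0.9, n = 3 each). With 3 libraries against 3, the exact permutation test cannot go below p = 0.1.

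The ferritin subunits differed from each other in their response. Ftl1 (ENSMUSG00000050708.17, chromosome 7, 45457944 to 45459884), the light subunit, which helps the iron core form, had 115832, 112596 and 111631 normalized counts in sorafenib and 32611, 36090 and 35449 in DMSO. Its lowest sorafenib library was more than 3 times its highest DMSO library. Ftl1 rose 3.27-fold, by 1.71 ± 0.04 on the log2 scale (SE, limma adjusted p = 3.46e-09), which was the largest change among the 10 genes by the authors' normalization, and 15.1% of all genes tested changed more.

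Fth1 (ENSMUSG00000024661.8, chromosome 19, 9980598 to 9985098), the heavy subunit, which oxidizes iron for storage, had 92602, 90118 and 92481 normalized counts in sorafenib and 99043, 97559 and 102710 in DMSO. The groups did not overlap, but the change was −0.12 ± 0.03 on the log2 scale (SE, limma adjusted p = 0.00803). It was 0.035 ± 0.030 with equal totals (limma adjusted p = 0.32), where the groups overlapped, and 0.40 ± 0.03 with quantile normalization (limma adjusted p = 1.29e-06), so the direction of Fth1 rests on the scaling. Of all genes tested, 87.8% changed more than Fth1.

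The ratio of Fth1 to Ftl1 within a library was 0.799, 0.800 and 0.828 in sorafenib and 3.04, 2.70 and 2.90 in DMSO. A ratio within a library does not depend on the factor by which that library is scaled. It averaged 0.809 ± 0.0165 in sorafenib and 2.88 ± 0.168 in DMSO (SD, n = 3 each), a log2 difference of −1.83 (exact two-sided permutation test, p = 0.1, the smallest possible; adjusted over the 5 ratios, 0.167). Divided by transcript length, Ftl1 had 117100 ± 2273 normalized counts per kb in sorafenib and 35864 ± 1913 in DMSO over its 968 bases. Fth1 had 98744 ± 1508 per kb in sorafenib and 107396 ± 2854 in DMSO over the shorter of its 2 principal transcripts, 929 bases, and 61401 ± 938 and 66781 ± 1775 over the longer, 1494 bases. On either length the light subunit was above the heavy subunit per kb in sorafenib and below it in DMSO.

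Exons of Gm10252, on the opposite strand, overlap 355 bases of Ftl1 exons at a mean of 10.7 normalized counts. Ferritin genes have many processed copies in the genome, whose reads can be split from the parent gene uncertainly. The 3 rows named as Ftl1 or Ftl2 pseudogenes summed to 3468, 3522 and 3383 normalized counts in sorafenib and 1098, 1175 and 1047 in DMSO, at most 3.37% of Ftl1 in any library. The 12 rows named as Fth1 copies or Fthl17 genes summed to 22.9, 14.8 and 8.31 in sorafenib and 12.6, 16.5 and 18.9 in DMSO. With these rows added to their parent genes the log2 difference of the ratio was −1.83.

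**Figure D2:**
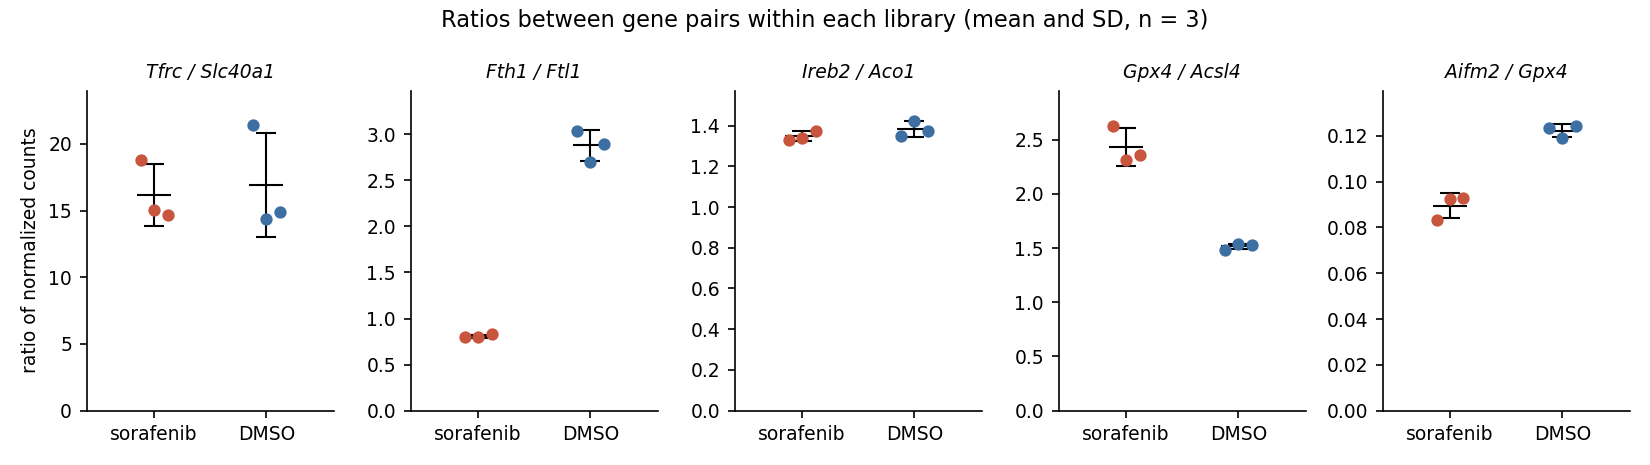
Ratios of normalized counts between 5 pairs of the 10 genes in each library (linear axes from 0), sorafenib beside DMSO; points are libraries, and black marks are the mean and SD of 3. The Fth1 to Ftl1 ratio was near 0.8 in sorafenib and 2.9 in DMSO, while the Tfrc to Slc40a1 and Ireb2 to Aco1 ratios overlapped between groups.

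The messages of both iron regulatory proteins differed little between groups. Ireb2 (ENSMUSG00000032293.9, chromosome 9, 54863789 to 54912530), which encodes IRP2, a protein degraded when iron is plentiful, had 6462, 6428 and 6323 normalized counts in sorafenib and 7097, 7132 and 6952 in DMSO. Ireb2 differed by −0.14 ± 0.03 on the log2 scale (SE, limma adjusted p = 0.00298), and by 0.015 ± 0.033 with equal totals (limma adjusted p = 0.689). Aco1 (ENSMUSG00000028405.10, chromosome 4, 40143081 to 40198338) encodes IRP1, which is cytosolic aconitase when it holds an iron-sulphur cluster. It had 4861, 4804 and 4597 normalized counts in sorafenib and 5269, 5008 and 5061 in DMSO. Its change of −0.10 ± 0.04 passed narrowly (SE, limma adjusted p = 0.0341), was 0.051 ± 0.039 with equal totals (limma adjusted p = 0.257), and did not pass in the authors' deposited table (adjusted p = 0.0745). The ratio of Ireb2 to Aco1 averaged 1.35 ± 0.0246 in sorafenib and 1.38 ± 0.0392 in DMSO (SD, n = 3 each; exact two-sided permutation test, p = 0.3). Per kb of transcript, Ireb2 and Aco1 stood at 1110 ± 12.5 and 1241 ± 36.3 normalized counts in sorafenib, and at 1224 ± 16.5 and 1334 ± 36.0 in DMSO.

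Among the genes of ferroptosis defence, the Aifm2 message was lower in sorafenib and that of Gpx4 differed least of the 10 by the authors' normalization. Gpx4 (ENSMUSG00000075706.12, chromosome 10, 80047166 to 80056439), the selenoenzyme that reduces lipid hydroperoxides in membranes, had 21709, 20075 and 19852 normalized counts in sorafenib and 19174, 19171 and 19282 in DMSO. The sorafenib libraries were all above the DMSO libraries, replicate 1 by the most. The log2 change of 0.10 ± 0.04 did not pass (SE, limma adjusted p = 0.0504), and it was 0.25 ± 0.04 with equal totals (limma adjusted p = 0.000252) and 0.25 ± 0.04 with quantile normalization (limma adjusted p = 0.000182). It also passed when the 2 rows named as Gpx4 pseudogenes, at most 10.1% of the gene, were added (0.10, limma adjusted p = 0.0314), with no filter on low values (limma adjusted p = 0.0472), with a minimum of 50 (limma adjusted p = 0.0484) and without sorafenib replicate 3 (0.12, limma adjusted p = 0.0388). It did not pass when any of the other 5 libraries was left out (limma adjusted p = 0.0626 to 0.110) or with the replicate number as a block (limma adjusted p = 0.0529). Without sorafenib replicate 1 the change was 0.056 (limma adjusted p = 0.110).

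Aifm2 (ENSMUSG00000020085.16, chromosome 10, 61715263 to 61739260), the source of FSP1, had 1804, 1853 and 1842 normalized counts in sorafenib and 2367, 2280 and 2392 in DMSO. The groups did not overlap, and the gene fell 1.28-fold, a log2 change of −0.36 ± 0.04 (SE, limma adjusted p = 5.35e-05). The fall was −0.20 ± 0.04 with equal totals (limma adjusted p = 0.002). Exons of H2afy2, on the opposite strand, overlap 233 bases of Aifm2 exons. H2afy2 had a log2 change of −0.27 at a mean of 448.3 normalized counts. The sources used here do not say whether strand was used in counting, and without it reads of overlapping genes cannot be told apart. The ratio of Aifm2 to Gpx4 averaged 0.0894 ± 0.00545 in sorafenib and 0.122 ± 0.00282 in DMSO, with every sorafenib library below every DMSO library (SD, n = 3 each; exact two-sided permutation test, p = 0.1, adjusted 0.167).

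Acsl4 (ENSMUSG00000031278.13, chromosome X, 142317993 to 142390535), which activates arachidonic and related fatty acids for entry into phospholipids, had 8259, 8691 and 8420 normalized counts in sorafenib, against 12913, 12482 and 12647 in DMSO. It fell 1.50-fold, by a log2 change of −0.58 ± 0.03 (SE, limma adjusted p = 3.68e-07), and by −0.43 ± 0.03 with equal totals (limma adjusted p = 3.23e-06). The ratio of Gpx4 to Acsl4 was 2.63, 2.31 and 2.36 in sorafenib and 1.48, 1.54 and 1.52 in DMSO. Its log2 difference was 0.68, and the groups did not overlap (exact two-sided permutation test, p = 0.1, adjusted 0.167, n = 3 each).

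**Figure D3:**
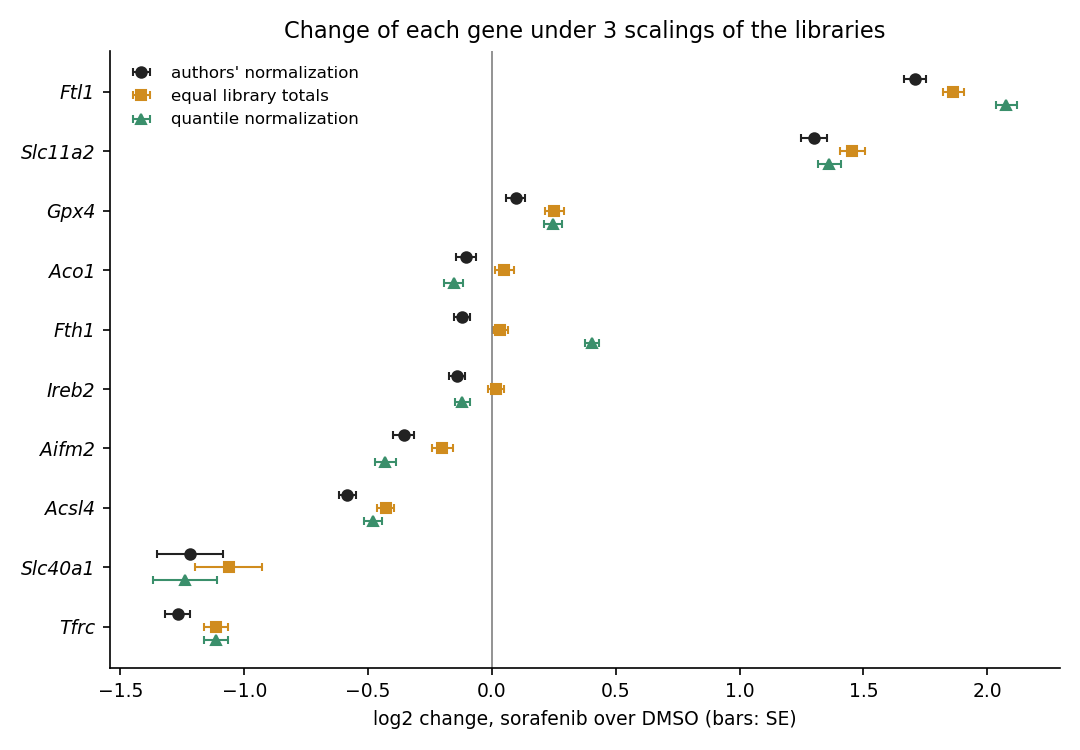
Log2 change of each of the 10 genes, sorafenib over DMSO, with its standard error, by the authors' normalization, with equal library totals and with quantile normalization (linear axis). Ftl1, Slc11a2, Gpx4, Acsl4, Slc40a1, Tfrc and Aifm2 kept their sign under all 3 scalings, while Aco1, Fth1 and Ireb2 crossed 0 under at least 1 of them.

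By the authors' deposited table, 8 of the 10 genes had an adjusted p under 0.05, all in the direction given here, and the other two were Aco1 and Gpx4.

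Further genes of the same pathways were read from lists by role. The counts below stand against 38.8% of all tested genes higher and 37.8% lower in sorafenib, or 46.6% and 31.7% with equal totals, and an all-gene median log2 change of 0.015, or 0.17 with equal totals. In iron transport and body iron regulation, 16 of 22 listed genes reached the minimum, 7 higher and 6 lower in sorafenib (8 and 5 with equal totals), and the list's median log2 change was 0.24. These shares, 43.8% higher and 37.5% lower, were near those of all genes. At least 2-fold, 4 of the 16 rose and 5 fell, while 29.8% of all genes changed by that much. Tmprss6, counted as lower, averaged 6.16 in sorafenib and 29.5 in DMSO, and reached the minimum only in DMSO. Bmp6, counted as higher, reached it in every sorafenib library and averaged 8.41 in DMSO. Calls of these genes could hardly go the other way. Steap1, of the STEAP metalloreductase family, had 6042, 5334 and 5379 normalized counts in sorafenib and 416.2, 342.9 and 298.3 in DMSO and rose 15.8-fold. Hjv, or hemojuvelin, a bone morphogenetic protein co-receptor known in skeletal muscle and liver, fell 6.11-fold, with means of 3619 ± 501 in sorafenib and 22101 ± 1132 in DMSO (SD, n = 3 each). Hephl1, a copper-dependent ferroxidase, fell 8.13-fold to 975.9 ± 256 in sorafenib, against 7936 ± 230 in DMSO. Slc39a14, the metal importer ZIP14, rose by 0.37 ± 0.08 on the log2 scale (SE). Hepcidin was near absent: Hamp was listed at 0.976 in a single DMSO library and at 0 elsewhere, and Hamp2 at 0 in every library.

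Genes of ferritin turnover, iron chaperones and IRP control moved by less than 2-fold throughout. Of 9 tested, 6 were higher and 3 lower in sorafenib, but with equal totals 6 were higher and 0 lower. By the authors' normalization the shares were 66.7% higher and 33.3% lower, beside 38.8% and 37.8% of all genes; without sorafenib replicate 3, 1 was lower. Ncoa4, the receptor that carries ferritin to autophagosomes, rose 1.46-fold, with 9561 ± 289 normalized counts in sorafenib and 6566 ± 323 in DMSO (SD, n = 3 each). Fbxl5, the ubiquitin ligase subunit that marks IRP2 for degradation when iron is present, rose by 0.32 ± 0.04 on the log2 scale. Bola2, an iron-sulphur chaperone partner, and Mcoln1, a lysosomal cation channel, rose by 0.68 ± 0.06 and 0.60 ± 0.07 (SE).

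All 36 listed genes of mitochondrial iron, iron-sulphur clusters and haem were tested, and 17 were higher and 13 lower (20 and 10 with equal totals), with a median of 0.06. These shares, 47.2% higher and 36.1% lower, were near the 38.8% and 37.8% of all genes. Cpox, which makes protoporphyrinogen in haem synthesis, had 22487, 22010 and 21327 normalized counts in sorafenib and 2420, 2345 and 1942 in DMSO and rose 9.81-fold. Hmox1, the inducible haem oxygenase that frees iron from haem, rose 6.36-fold, with 16843 ± 945 in sorafenib and 2648 ± 114 in DMSO (SD, n = 3 each). Flvcr1, described as an exporter of haem, rose 2.91-fold.

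Cystine, glutathione and selenoprotein genes stood highest as a list. Of 16 tested, 14 were higher and 1 lower (15 and 1 with equal totals), or 87.5% and 6.25%, beside 38.8% and 37.8% of all genes, and the median log2 change was 0.84, beside 0.015 for all genes. Slc7a11, the cystine importer, had 11198, 9711 and 9264 normalized counts in sorafenib and 226.5, 162.7 and 133.3 in DMSO, and rose 57.8-fold. Its partner chain Slc3a2 rose 13.9-fold and Cth, which makes cysteine from cystathionine, 24.5-fold. Chac1, which degrades glutathione, rose 4.36-fold, with 10846 ± 204 in sorafenib and 2486 ± 211 in DMSO (SD, n = 3 each). The exception was Gss, glutathione synthetase, which fell 2.23-fold and was picked out after its values were seen.

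Of 23 genes that trap lipid radicals without glutathione, 10 were higher and 8 lower (13 and 5 with equal totals). These shares, 43.5% higher and 34.8% lower, were near the 38.8% and 37.8% of all genes. Gch1, the rate-limiting enzyme of tetrahydrobiopterin synthesis, rose 7.77-fold, with 2986, 2885 and 2906 normalized counts in sorafenib and 376.3, 372.0 and 381.1 in DMSO. Dhodh, which reduces coenzyme Q in mitochondria, rose by 0.71 ± 0.07 and Nqo1, a quinone reductase, by 0.33 ± 0.10 on the log2 scale (SE). Nqo1 did not pass without sorafenib replicate 1 (limma adjusted p = 0.057) or DMSO replicate 3 (limma adjusted p = 0.0652). Coq8a, needed for coenzyme Q synthesis, fell 5.42-fold, and Mboat2, a phospholipid acyltransferase, 3.65-fold.

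Of 22 tested genes listed under polyunsaturated phospholipid synthesis and peroxidation, 13 were lower and 6 higher in sorafenib (11 and 8 with equal totals). The shares were 59.1% lower and 27.3% higher, beside 37.8% and 38.8% of all genes. The list's median log2 change was −0.29, beside 0.015 for all genes, and −0.13 with equal totals, beside 0.17. Lpcat3, which inserts polyunsaturated chains into phospholipids, fell 3.27-fold, with 2088 ± 248 normalized counts in sorafenib and 6833 ± 409 in DMSO (SD, n = 3 each). The acyl-CoA synthetases Acsl6 and Acsl3 fell 7.65-fold and 3.46-fold, and the desaturase Scd2 5.61-fold. In the list, 8 genes fell at least 2-fold and 2 rose at least 2-fold. Among those 8 were Scd2 and Scd1, which make monounsaturated fatty acids, and Acsl3, described as activating them. The list's counts and median therefore do not measure the supply of peroxidizable lipids alone.

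Among 6 other messages described as carrying an IRE, 5 were tested, 3 lower and 2 higher, too few to set against the shares of all genes. Cdc14a, a phosphatase, rose by 1.49 ± 0.12 on the log2 scale (SE). App, the amyloid precursor protein, changed by −0.24 ± 0.03, and by −0.011 with quantile normalization, which did not pass (limma adjusted p = 0.762). Epas1, the transcription factor HIF-2 alpha, was low, at 3.36 ± 2.12 in sorafenib and 13.3 ± 2.25 in DMSO. It is 1 of the 3 lower genes, but it reached the minimum only in the DMSO libraries, so a call could hardly go the other way. With a minimum of 50, 2 genes were lower. Without sorafenib replicate 2 or DMSO replicate 1, 1 gene was higher.

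**Figure D4:**
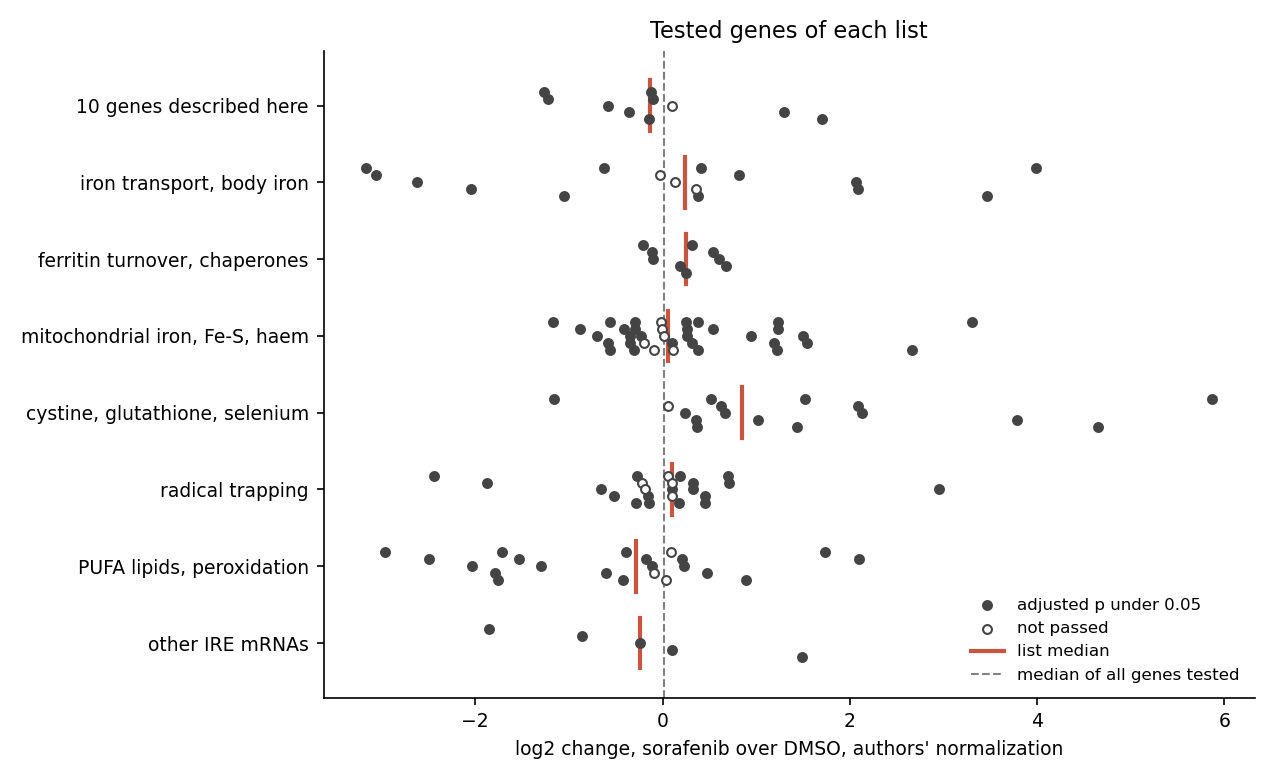
Log2 change, sorafenib over DMSO, of every tested gene in the 10-gene set and in each of the 7 lists (linear axis); filled points passed an adjusted p of 0.05, open points did not, red bars are list medians and the dashed line is the median of all genes tested. The cystine, glutathione and selenium list lay mostly to the right, with a median of 0.84, and the polyunsaturated lipid list had a median of −0.29. The latter list also holds genes of monounsaturated lipids.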

How the data were processed

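Poly(A)-selected, stranded libraries were made from total RNA, per the labels' protocols. The values used are a normalized signal per gene that the authors deposited. The submitters' processing notes name DESeq2, bcl2fastq and GRCm38.p6. For all 55356 genes the deposited base mean was the average of the 6 columns (within 1e-06), which marks them as the normalized counts. Per the file headers, the columns carry the ending quant sf, the output name that Salmon and Sailfish use; the sources used here state no tool or version for this step. The authors' deposited comparison holds a log2 fold change, its standard error, a Wald score and raw and adjusted p-values. Per library, 63.9% to 70% of values under 20 lay within 0.02 of a whole number of reads, too few to recover reads, so no count model was fitted. The table's gene positions matched GRCm38 for 3.34% of shared identifiers, so positions are those of GENCODE M21, matched by identifier.

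Groups were compared with limma 3.58.1 under R 4.3.3 (mean-variance trend, robust) on log2(normalized count + 1), with group as the only term. Genes needed 10 normalized counts in 3 libraries. The added 1 shrinks log2 changes of genes with low values, and folds in the text are ratios of group means. The limma step was tested on simulated data. Ratios used an exact permutation test.

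Members and lists were chosen with earlier results of these data known. Named were the 10 genes, up to 3 genes per list with the largest called change at a mean of at least 100, and 12 fixed genes, of which 1 is not reported here. Alternatives were equal totals, quantile normalization, other filters and pseudocounts, the replicate number as a block, each library left out, and pseudogene rows added. Same-numbered libraries deviated together at correlations of 0.0770, 0.0448 and 0.0220. These low values do not settle whether libraries were paired, and the main fit was not paired. No per-sample column was unused. Python 3.11.15, pandas 2.3.3 and matplotlib 3.10.9 were used.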

Additional observations from a re-analysis of the deposited data

How the results depend on the processing

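Of the 10 genes, 2 were higher and 7 lower, against 3 and 4 with equal totals and 4 and 6 with quantile normalization. When a library was left out, 2 to 3 were higher and 6 to 7 lower. The log2 change of Fth1 reversed to 0.035 with equal totals and to 0.40 with quantile normalization, and those of Ireb2 and Aco1 reversed to 0.015 and 0.051 with equal totals; the cause was not tested. Aco1 did not pass with no filter on low values or without any of sorafenib replicates 2 and 3 and DMSO replicates 1 and 3.

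Lower genes of ferritin turnover and IRP control numbered 3, against 0 with equal totals, 1 with quantile normalization and 1 to 3 when a library was left out. Lower radical trapping genes numbered 8, and 5 with equal totals. Higher genes among other IRE messages numbered 2, and 1 to 2 with a library left out.

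The log2 difference of the Tfrc to Slc40a1 ratio was 0.12 with quantile normalization and −0.16 to 0.13 with a library left out, and turned positive without sorafenib replicate 3 or DMSO replicate 1. That of Ireb2 to Aco1 was 0.034 with quantile normalization, that of Fth1 to Ftl1 −1.67 and that of Aifm2 to Gpx4 −0.68.

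With the replicate block, 2 of the 10 genes were higher and 7 lower, and 6404 of all genes were higher and 6231 lower; it changed no call of a named gene. Whether same-numbered libraries were paired is not settled here. Their correlations were all positive, and each sorafenib library correlated best with the DMSO library of its own number. DMSO replicate 3 correlated slightly better with sorafenib replicate 2 (0.0253) than with sorafenib replicate 3 (0.0220). In the column names, the library numbers of same-numbered replicates are consecutive. The count-based alternative was not run, because values were not whole reads. The scaling moved some genes by more than 0.1 on the log2 scale, and the sign of changes near 0.1 can turn with it. Fth1 went from −0.12 by the authors' normalization to 0.40 with quantile normalization. Aifm2 kept its sign but went from −0.36 to −0.20 with equal totals and −0.43 with quantile normalization.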

Other observations

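Some further genes of these lists, chosen after their values were seen, moved strongly. The mitochondrial iron importers Slc25a37 (mitoferrin 1) and Slc25a28 (mitoferrin 2) rose 2.83-fold and 2.35-fold. Slc25a37 had 31824, 29100 and 28730 normalized counts in sorafenib and 9708, 11034 and 10915 in DMSO, and Slc25a28 had 3073, 2824 and 3001 in sorafenib and 1295, 1271 and 1218 in DMSO. Neither gene's groups overlapped. Steap3, the ferrireductase of the transferrin endosome, rose 1.77-fold, to 6282 ± 252 in sorafenib, against 3555 ± 190 in DMSO (SD, n = 3 each). Slc39a8, the metal importer ZIP8, rose 4.31-fold at low levels, 466.6 ± 49.0 in sorafenib and 108.3 ± 3.73 in DMSO.

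Cyb5r1, a reductase that can feed electrons to lipid peroxidation, rose 3.33-fold, with 44146 ± 853 normalized counts in sorafenib and 13241 ± 264 in DMSO (SD, n = 3 each). Alox5, arachidonate 5-lipoxygenase, fell 2.45-fold, to 7372 ± 622 in sorafenib, against 18056 ± 569 in DMSO. In the selenoprotein arm, Txnrd1, thioredoxin reductase, rose 2.89-fold and Eefsec, the elongation factor for selenocysteine, 2.02-fold.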
